A study of Mus musculus with 44 samples.

Results

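Traj33 is a joining segment of the T cell receptor (TCR) alpha locus, and its chains were recognized here by how the CDR3 ends, the CDR3 being the variable loop that spans the V-J junction. A CDR3 was counted as Traj33 where its amino acids ended in SNYQLIW. By this rule 855 distinct CDR3s were found, as 1632 entries (a CDR3 in a tumour) among the 58884 entries of alpha chains, in all 44 tumours, and they held 69676 of 1841575 alpha chain reads. The Traj33 CDR3s were then split into a MAIT form of 12 residues (CAV, any residue, DSNYQLIW), with 7 distinct CDR3s, 30 entries and 307 reads, and all others, with 848 distinct CDR3s, 1602 entries and 69369 reads.

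The study used C57BL/6 mice (C57BL/6J in its methods) of wild-type genotype that carried subcutaneous tumours of B16F10, a mouse melanoma cell line, and took tumour tissue on day 12. TCR transcripts were sequenced from whole tumour RNA in 14 tumours labelled vehicle, 15 treated with anti-PD-1, an antibody that blocks an inhibitory receptor of T cells, and 15 treated with AC484, an inhibitor of the phosphatases PTPN2 and PTPN1. The study's methods describe the first group as having no treatment, and give neither doses for this experiment nor a sort of T cells. Alpha chain reads ranged from 1466 to 24129 in vehicle tumours (median 8762.5) and from 10432 to 108156 in anti-PD-1 tumours (median 21959). In AC484 tumours they ranged from 18508 to 315679 (median 67192), so depth moved with treatment. It also moved with the index primer set, a library batch. Alpha chains made up 4.31% to 9.59% of all reads in anti-PD-1 tumours of set 2 and 26.8% to 36.0% in those of set 3. Treatments and sets overlap little, as given below, and their parts in depth were not tested. Reads came from bulk tissue and carried no molecular identifiers. More cells of a clone and more receptor RNA per cell therefore cannot be told apart, and all intervals on shares cover counting error only.

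Mucosal-associated invariant T (MAIT) cells are T cells that recognize metabolites of microbial vitamin B2 synthesis on the MHC class I-related molecule MR1. Their alpha chain is almost fixed: in mice the V gene Trav1 is joined to Traj33 with little diversity at the junction, which gives a CDR3 of constant length. MAIT cells are known to be scarce in common laboratory mouse strains. Most Traj33 chains are those of conventional T cells, in which the same segment joins many V genes with trimmed and added bases.

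Both germline segments of the MAIT chain lie on the plus strand of chromosome 14 in the GRCm38.p6 reference genome. They are shown because the MAIT form and the reading of a germline junction in the other chains rest on them. Trav1 ends at chr14:52428847-52428876, where the capitals mark the codons of CAV, and the next codon encodes arginine. Traj33 spans chr14:54185358-54185414, where the capitals mark the codons of DSNYQLIW, the residues of the CDR3 that Traj33 encodes in whole codons.
Trav1, last 30 bases: ctctgcctcatacctcTGTGCTGTGaggga
Traj33, 57 bases: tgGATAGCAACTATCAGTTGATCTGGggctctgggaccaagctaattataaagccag

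Of 108 Trav genes with a germline end, Trav1 was the only one to end in CAVR, whereas 15 began their end with CAVS and 21 with CAV in all. The deposited table names no V gene. A CDR3 of the MAIT form can therefore be called MAIT-like in sequence only, and an arginine at position 4, counted from the first cysteine, is the residue that Trav1 encodes. The defining surface markers of MAIT cells were not measured here.

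The 6 MAIT-form CDR3s found in at least 2 tumours are listed by their residue at position 4, the only residue in which they differ.
Arginine, 14 tumours: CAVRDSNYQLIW
Serine, 5 tumours: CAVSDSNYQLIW
Glycine, 3 tumours: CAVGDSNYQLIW
Methionine, 3 tumours: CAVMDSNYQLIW
Lysine, 2 tumours: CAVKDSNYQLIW
Leucine, 2 tumours: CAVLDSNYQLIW

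The arginine form, in which every residue is one that the germline ends of Trav1 and Traj33 encode, was the most widespread MAIT-form CDR3. It was read in 1 of 14 vehicle tumours (6 reads), in 3 of 15 anti-PD-1 tumours (1, 2 and 7 reads) and in 10 of 15 AC484 tumours (3 to 62 reads, median 5.5), 135 reads in all. The serine form, which 15 Trav genes could begin without an added residue, had 115 reads, of which 88 were in AC484 tumour 2. The glycine form had 7 reads in vehicle tumour 4, 9 in AC484 tumour 2 and 1 in AC484 tumour 15. The methionine form had a single read in each of its 3 tumours. The lysine form had 18 reads in AC484 tumour 5 and 4 in anti-PD-1 tumour 7, and the leucine form had 5 reads in anti-PD-1 tumour 14 and 2 in anti-PD-1 tumour 10. The seventh form, with threonine, had 8 reads in AC484 tumour 7 only.

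MAIT-form chains were rare in every group. They made up 0.441% of all Traj33 reads and 1.84% of all Traj33 entries. The largest share was in AC484 tumour 2, with 159 of 83335 alpha chain reads, or 0.191% (95% exact binomial interval 0.162% to 0.223%), and this tumour alone held 51.8% of all MAIT-form reads. The next highest shares were 0.0759% in anti-PD-1 tumour 7, from 11 reads (interval 0.0379% to 0.136%), and 0.0749% in vehicle tumour 4, from 7 reads (interval 0.0301% to 0.154%), and these intervals overlap. Of the 17 tumours with the form, 8 held 1 such CDR3, 5 held 2 and 4 held 3. In the 27 tumours without the form, a count of 0 allows a share of up to 0.00277% in the deepest and up to 0.205% in the shallowest (3 reads of the tumour's alpha chain total).

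A MAIT-form CDR3 was found in 10 of 15 AC484 tumours, 4 of 15 anti-PD-1 tumours and 3 of 14 vehicle tumours. No difference passed after adjustment over all 33 tests: two-sided Fisher's exact tests gave adjusted p = 0.139 for AC484 against vehicle (p = 0.0253), 0.238 for AC484 against anti-PD-1 (p = 0.0656) and 1 for anti-PD-1 against vehicle. Within index primer set 3, the only one shared by AC484 and anti-PD-1, 6 of 7 AC484 and 1 of 5 anti-PD-1 tumours held the form (Fisher's exact p = 0.072, chosen after seeing the data). Depth moved with detection. The tumours with the form had 8306 to 315679 alpha chain reads (median 60843), and those without had 1466 to 108156 (median 18574). When the number of MAIT-form CDR3s was set to what a draw of 1466 alpha chain reads would hold, AC484 tumours had 0.233 ± 0.406 (SD, n = 15), anti-PD-1 tumours 0.0957 ± 0.237 (n = 15) and vehicle tumours 0.130 ± 0.260 (n = 14). These differed by less than their spread, with adjusted p = 0.706 for AC484 against vehicle and 0.623 for AC484 against anti-PD-1 in a two-sided permutation test.

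As a share of alpha chain reads, the MAIT form had a median of 0.00927% in AC484 tumours and of 0% in both other groups. The means were 0.0222% ± 0.0479 (SD, n = 15) with AC484, 0.00769% ± 0.0201 (n = 15) with anti-PD-1 and 0.0127% ± 0.0259 (n = 14) with vehicle, and all 3 ranges began at 0. The difference of AC484 from vehicle was 0.00943 percentage points (95% interval from redrawn tumours -0.0139 to 0.0391, adjusted p = 0.79 in the permutation test), and without AC484 tumour 2 it was -0.00261. As a share of Traj33 reads, the form reached 5.61% in AC484 tumour 2, 4.84% in vehicle tumour 14 and 3.67% in anti-PD-1 tumour 7. The group means were 0.971%, 0.506% and 0.297% in AC484, vehicle and anti-PD-1 tumours, with adjusted p of 0.424 or more by permutation for each of the 3 differences.

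**Figure D1:**
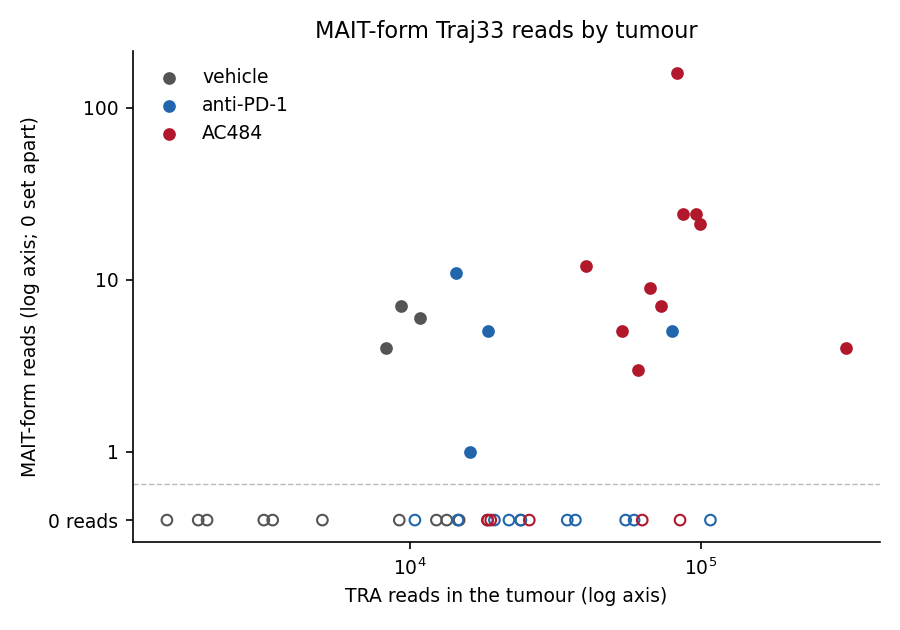
Reads of MAIT-form Traj33 CDR3s in each of 44 tumours (vertical log axis, with tumours at 0 reads set apart as open circles) against the alpha chain (TRA) reads of the tumour (horizontal log axis), coloured by treatment. AC484 tumour 2 stands above the rest with 159 reads, and the other 16 tumours with the form hold between 1 and 24 reads.

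A short germline-like junction was also found with other Traj genes. The same form was counted for 44 Traj genes, as CAV, 1 residue and the last 8 residues of the germline end of the segment, and 40 had it. It made up 1.84% of Traj33 entries, which ranked 15 of the 44 genes (median 1.29%, highest 3.08%), and it was read in 17 tumours against a median of 11. Traj33 ranked 17 by reads. The genes with the most reads in this form were Traj11 with 4533 reads in 14 tumours, Traj30 with 1534 reads in 24 tumours and Traj12 with 1365 reads in 31 tumours. When the whole germline end was required for each gene, which leaves Traj33 as it was, Traj33 ranked 22 and the median share was 1.83%.

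Arginine stood at position 4 in 14 of the 30 MAIT-form entries, or 46.7%, and serine in 5, or 16.7%. In the same form of the 42 Traj genes with at least 5 such entries, the median share of arginine was 25.4% and that of serine 22.6%. Traj33 ranked 5 for arginine, after Traj26, Traj16, Traj32 and Traj53. These shares rest on 6 to 37 entries in the 5 genes named, they count a CDR3 again in each tumour that holds it, and they are given as a description with no test.

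Among conventional chains, 1 Traj33 clone could dominate a tumour. The largest Traj33 CDR3 held at least 1% of alpha chain reads in 21 of 44 tumours (7 of 14 vehicle, 8 of 15 anti-PD-1 and 6 of 15 AC484) and at least 5% in 6. The CDR3s with the most reads in each treatment group, and others above 5% of a tumour, are given here with the tumour that holds most of their reads.
Vehicle tumour 1: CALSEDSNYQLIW
Anti-PD-1 tumour 6: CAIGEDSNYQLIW
AC484 tumour 12: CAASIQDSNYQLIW
Anti-PD-1 tumour 10: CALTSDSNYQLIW
Vehicle tumour 11: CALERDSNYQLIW

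The first of these took 10584 of 14808 alpha chain reads in vehicle tumour 1, or 71.5% (95% exact binomial interval 70.7% to 72.2%), and 464 reads, 5.59%, in vehicle tumour 6. The leading CDR3 of anti-PD-1 tumour 6 held 4006 reads there, or 27.3% (interval 26.6% to 28.1%), and that of AC484 tumour 12 held 4246 reads, or 5.80%. The leading CDR3s of anti-PD-1 tumour 10 and vehicle tumour 11 held 8.72% and 6.80%. All 5 of these CDR3s keep the whole germline end of Traj33. Because the table gives amino acids, a CDR3 can join several nucleotide clones.

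CDR3s of such clones were also read at low counts in other tumours, and these entries are set here against the index primer set of the library, the library batch used here. The file lists 12 vehicle tumours in set 1, 2 vehicle and 10 anti-PD-1 tumours in set 2, 5 anti-PD-1 and 7 AC484 tumours in set 3 and 8 AC484 tumours in set 4. The dominant CDR3 of vehicle tumour 1 was read in 11 of the 12 tumours of set 1, but in 4 of 12, 2 of 12 and 1 of 8 tumours of sets 2, 3 and 4. Of its 18 entries, 16 were under 1% of its highest count. Over all Traj33 CDR3s, 115 entries were under 1% of the highest count of the same CDR3, and 58 of these, or 50.4%, were in the index set of the highest tumour, which held on average 24.1% of the other tumours. Higher entries were also over the share of tumours in that set: of the 90 other entries of CDR3s with over 100 reads in a tumour, 31, or 34.4%, were in it, against 23.5% of the other tumours. The leading CDR3 of anti-PD-1 tumour 6 had the same pattern, with 6 tumours in set 2, none in set 1 and 1 each in sets 3 and 4. The same amino acid CDR3 can arise separately in several tumours, and the part of carry-over between libraries in these counts was not tested. Group and within-tumour tests on distinct or shared CDR3s below were also computed without such entries. The fit across Traj genes, the ranks of Traj genes, and counts or lists of CDR3s pooled over tumours were not.

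The highest Traj33 shares of alpha chain reads were in tumours with such clones, and the group medians lay between 2.11% and 2.77%. The share ran from 0.106% to 75.8% in vehicle tumours (median 2.11%), from 0.931% to 29.3% in anti-PD-1 tumours (median 2.77%) and from 0.382% to 11.1% in AC484 tumours (median 2.53%), and all 3 ranges overlap. The lowest share belonged to vehicle tumour 5, with 2 Traj33 reads of 1878. The means were 8.39% ± 19.6 (SD, n = 14), 5.31% ± 7.20 (n = 15) and 3.01% ± 2.80 (n = 15). Two-sided permutation tests gave adjusted p = 0.657 for AC484 against vehicle, 0.623 for AC484 against anti-PD-1 and 0.834 for anti-PD-1 against vehicle. The difference of anti-PD-1 from vehicle was -3.08 percentage points with all tumours and 2.10 without vehicle tumour 1, so its sign rests on that tumour, and that of AC484 from vehicle went from -5.38 to -0.20 without it. Without anti-PD-1 tumour 6, AC484 differed from anti-PD-1 by -0.58 in place of -2.30.

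The share of distinct alpha chain CDR3s, which no single clone can dominate, was near 3% in every group. In a draw of 1466 alpha chain reads, Traj33 would account for 3.36% ± 1.15 (SD, n = 14) of distinct CDR3s in vehicle tumours (1.74% to 5.81%, median 3.44%), 3.11% ± 0.481 (n = 15) in anti-PD-1 tumours (2.31% to 4.31%, median 3.13%) and 3.11% ± 0.646 (n = 15) in AC484 tumours (1.72% to 4.14%, median 3.23%). Differences from vehicle were -0.251 percentage points with AC484 (95% interval from redrawn tumours -0.914 to 0.397, adjusted p = 0.706) and -0.256 with anti-PD-1 (interval -0.892 to 0.354, adjusted p = 0.691), by two-sided permutation tests. AC484 and anti-PD-1 differed by 0.00526 (interval -0.403 to 0.391, adjusted p = 1). Without vehicle tumour 1 the differences from vehicle were -0.0629 and -0.0681. Within index primer set 2, where 10 anti-PD-1 tumours meet 2 vehicle tumours, anti-PD-1 differed by -1.14 (exact permutation p = 0.0152, adjusted p = 0.0932), and within set 3 AC484 differed from anti-PD-1 by 0.0578.

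**Figure D2:**
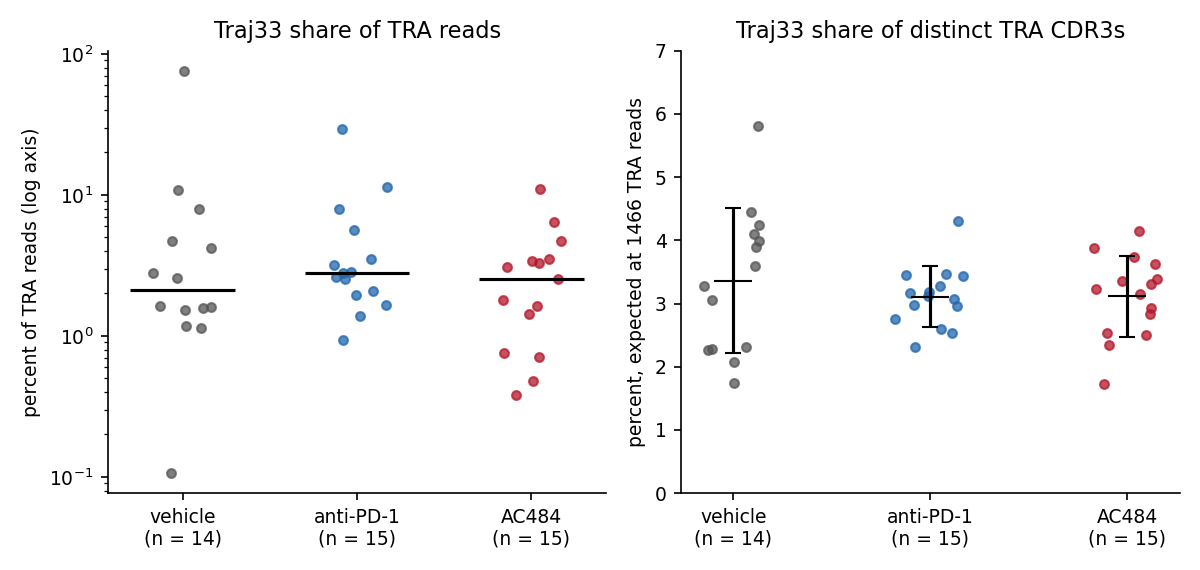
Traj33 in each tumour by treatment. Left, percent of alpha chain (TRA) reads on a log axis, with a line at the median of each group. Right, percent of distinct alpha chain CDR3s expected at 1466 alpha chain reads, with the mean and SD; vehicle tumours spread most, and the 3 group means lie between 3.11% and 3.36%.

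In the fit across all 43 Traj genes with at least 100 CDR3 entries, Traj33 was not called in any comparison. With edgeR's quasi-likelihood test on numbers of distinct CDR3s, its log2 fold change was -0.20 ± 0.13 (SE) for AC484 against vehicle (adjusted p = 0.456), -0.23 ± 0.14 for anti-PD-1 against vehicle (adjusted p = 0.492) and 0.03 ± 0.09 for AC484 against anti-PD-1 (adjusted p = 0.903). In the same direction as Traj33, the fit called 6.98%, 2.33% and 2.33% of Traj genes in these comparisons. With the index primer set as a block the first and second values were -0.69 (adjusted p = 0.295) and -0.71 (adjusted p = 0.226), more than 3 times larger, and still not called. Set 1 held vehicle tumours only, so with this block both values rest on the 2 vehicle tumours of set 2. AC484 shares no set with vehicle and is compared with it only through the anti-PD-1 tumours.

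Over the 44 tumours Traj33 held 2.93% ± 0.704 (SD) of distinct alpha chain CDR3s as deposited and ranked 13 of 43 genes, by mean share. The genes whose share followed that of Traj33 most closely across tumours were Traj15 with a Spearman correlation of 0.44, Traj7 with 0.22 and Traj13 with 0.20. These values describe shares of 1 total in libraries of unequal depth and carry no test.

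**Figure D3:**
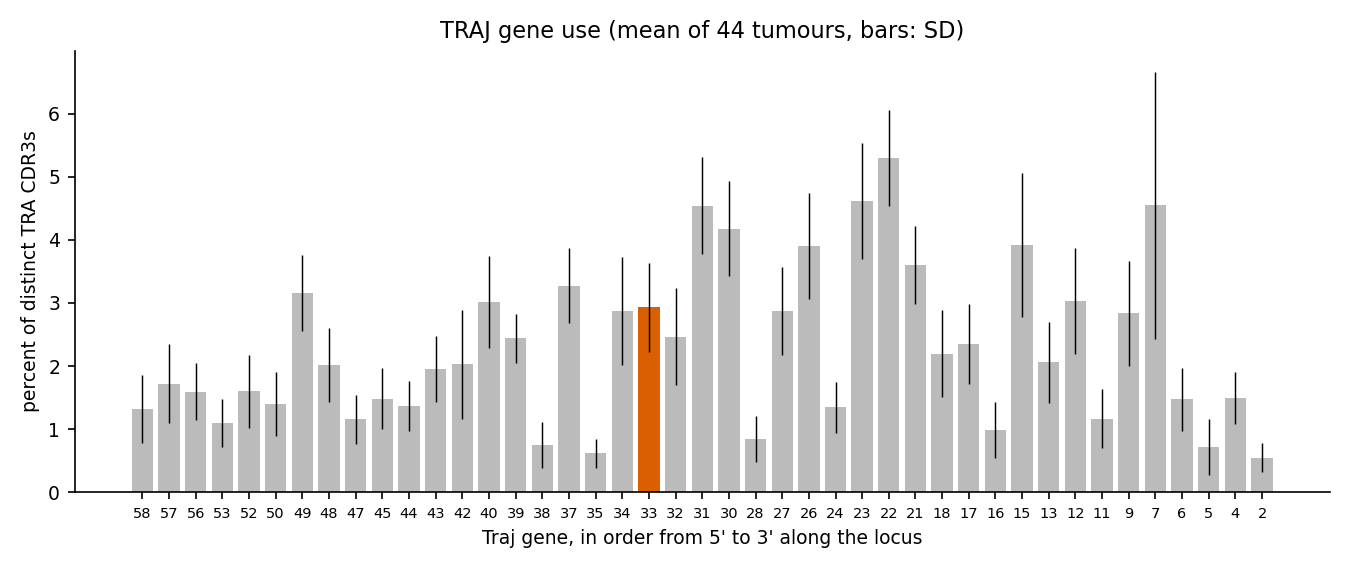
Mean percent of distinct alpha chain (TRA) CDR3s for 43 Traj genes in 44 tumours, in their order along the locus, with SD bars and Traj33 coloured. Traj33, counted by the ending SNYQLIW only, a stricter rule than that of the other genes, is at 2.93%. Traj22 is the most used at 5.30%.

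The number of distinct conventional Traj33 CDR3s had a higher mean in treated tumours, also at equal depth, but not past the adjusted threshold, and all alpha chain CDR3s had the same order. At 1466 reads a tumour held 223 ± 102 distinct alpha chain CDR3s (SD, n = 14) with vehicle, 329 ± 55.1 (n = 15) with anti-PD-1 and 347 ± 91.6 (n = 15) with AC484, and the Traj33 share of them was not higher in treated tumours, as given above. As deposited, vehicle tumours held 2 to 25 of them (median 11), anti-PD-1 tumours 19 to 54 (median 31) and AC484 tumours 28 to 140 (median 59). At 1466 alpha chain reads, the expected numbers were 7.20 ± 3.68 (SD, n = 14), 10.0 ± 1.60 (n = 15) and 10.6 ± 3.50 (n = 15), and the ranges overlapped. AC484 exceeded vehicle by 3.42 CDR3s (95% interval from redrawn tumours 0.904 to 5.87, p = 0.0169, adjusted p = 0.112), and 12 of 15 AC484 tumours were above the vehicle median. Anti-PD-1 exceeded vehicle by 2.81 (interval 0.736 to 4.78, p = 0.0122, adjusted p = 0.101), and 14 of 15 tumours were above that median. Both passed the permutation test when entries under 1% of the highest count of a CDR3 were removed (adjusted p = 0.0244 and 0.00506). They also passed when CDR3s of a single read were left out (0.017 and 0.000495). Both cuts were made on raw counts, before depth was made equal. A low count is a larger part of a shallow library, and vehicle libraries were the shallowest. These passes therefore cannot be separated from depth. AC484 against vehicle has no index set in common, and within set 2 anti-PD-1 exceeded vehicle by 1.27 (10 against 2 tumours, exact permutation p = 0.167).

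Conventional Traj33 CDR3s were most often 13 residues long, 1 residue longer than the MAIT form. Of the 848, 345 had 13 residues, 215 had 14, 162 had 12 and 59 had 11, and the rest ran from 9 to 17. The mean length per tumour was 12.9 ± 0.221 residues (SD, n = 14) with vehicle, 12.8 ± 0.212 (n = 15) with anti-PD-1 and 12.8 ± 0.177 (n = 15) with AC484. The largest difference, anti-PD-1 against vehicle, was -0.134 residues (95% interval from redrawn tumours -0.289 to 0.0155, adjusted p = 0.308 by permutation).

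**Figure D4:**
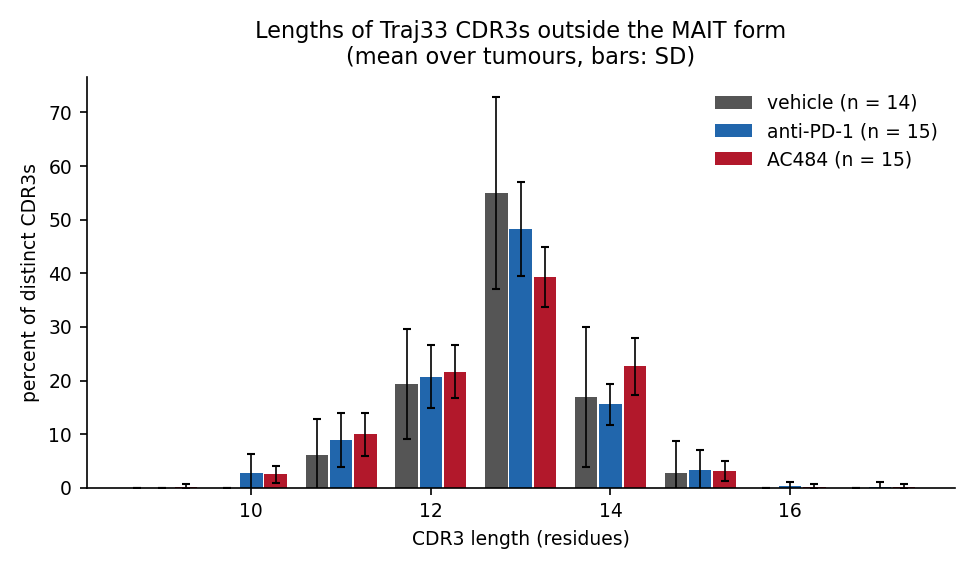
Percent of distinct conventional Traj33 CDR3s at each length, as the mean over tumours of a group with SD bars. All 3 groups peak at 13 residues, where the SD bars overlap, and no vehicle tumour held a CDR3 of 10 residues.

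The germline start of Traj33 was kept in most of the conventional chains counted here, which all end in SNYQLIW by the rule. The 160 entries that matched Traj33 best but lack this ending are outside the count. The residue D, the first that Traj33 encodes by a whole codon, preceded SNYQLIW in 476 of 848 distinct CDR3s, or 56.1%. Per tumour, this share was 72.3% ± 15.9 (SD, n = 14) with vehicle (50% to 100%), 62.3% ± 12.6 (n = 15) with anti-PD-1 (40.0% to 84.2%) and 63.3% ± 7.06 (n = 15) with AC484 (47.1% to 71.6%). The differences from vehicle of -8.91 percentage points with AC484 (adjusted p = 0.234) and -9.95 with anti-PD-1 (adjusted p = 0.238) did not pass the permutation test. Upstream of D, Traj33 carries the bases tg, which with any 1 base before them encode methionine, valine or leucine. Such a residue stood before D in 211 of the 476, or 44.3%, and methionine alone in 129, or 27.1%. It can also come from the V gene or from added bases, and other alpha chains were not counted at this position. These shares are therefore not a measure of kept tg bases.

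The starts of conventional Traj33 CDR3s, which the V gene encodes, were close to those of other alpha chains. CAA began 27.8% of the 848 distinct CDR3s and 26.7% of the other alpha chain CDR3s, CAL began 24.6% and 25.3%, and CAV began 17.5% and 17.6%. The start of Trav1, CAVR, was found in 16 conventional Traj33 CDR3s, or 1.89%, against 3.01% of other alpha chain CDR3s. These are descriptions, since a CDR3 start is shared by several V genes.

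The conventional CDR3s found in the most tumours all kept the germline end, and the first and second carry the methionine that the tg bases can encode.
In 22 tumours: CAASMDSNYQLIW
In 19 tumours: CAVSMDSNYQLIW
In 18 tumours, 11206 reads: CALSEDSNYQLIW
In 18 tumours, 5428 reads: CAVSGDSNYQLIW
In 18 tumours, 1304 reads: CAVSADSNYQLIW

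The CDR3 found in 22 tumours had no reads in the 14 vehicle tumours and was read in 9 of 15 anti-PD-1 tumours (1 to 43 reads, median 11) and in 13 of 15 AC484 tumours (1 to 21 reads, median 9). The second was read in 1 vehicle tumour (30 reads), 9 anti-PD-1 tumours (1 to 58, median 7) and 9 AC484 tumours (1 to 57, median 3). The CDR3 with 5428 reads also had none in vehicle tumours. It had 1 to 1281 reads in 7 anti-PD-1 tumours and 2 to 1477 in 11 AC484 tumours, up to 1.34% of alpha chain reads. The CDR3 with 1304 reads was read in 3 vehicle tumours (1 to 199), 4 anti-PD-1 tumours (7 to 423) and 11 AC484 tumours (1 to 216). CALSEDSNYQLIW had the opposite order, in 12 of 14 vehicle, 4 of 15 anti-PD-1 and 2 of 15 AC484 tumours. The carry-over question given above applies to its low counts, and to those of the CDR3s with 5428 and 1304 reads. Of the 18 entries of each of these, 9 and 6 were under 1% of the highest count. In vehicle tumours, 3 reads made up 0.0124% to 0.205% of alpha chain reads. The CDR3 with 5428 reads ran from 0.00230% to 1.34% in AC484 tumours that held it, and the one in 22 tumours reached 0.171%. For shares within or below the vehicle range, absence from the shallower vehicle libraries was not separable from depth. At any share, absence was also not separable from the index primer set, since 12 of 14 vehicle tumours were in set 1, without other treatments. The CDR3 in 22 tumours, the second and the one with 5428 reads were each read in 0 of 12 tumours of set 1. These CDR3s were chosen for the number of tumours that held them, so the group differences were not tested.

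Of the 848 conventional CDR3s, 607 were found in 1 tumour, 241 in at least 2 and 15 in at least 10. Of those 15, 13 kept the whole germline end, and 9 were found in all 3 groups. Of the 7 MAIT-form CDR3s, 6 were found in at least 2 tumours, and the arginine form was the only one found in all 3 groups.

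Within a tumour, MAIT-form CDR3s were shared with another tumour more often than other 12-residue Traj33 CDR3s of the same tumour. The share of MAIT-form CDR3s found in at least 1 other tumour was 66.7% in AC484 tumour 7 and 100% in the other 16 tumours. In the 16 tumours with both kinds, it was 26.7 percentage points higher for the MAIT form than for the others (95% interval from redrawn tumours 20.4 to 33.1, adjusted p = 0.00148 in a two-sided sign-flip permutation test), and it was higher in 15 of 16 tumours. The rule lets MAIT-form CDR3s vary only at position 4, whereas the others can vary at several positions. More sharing of the MAIT form is thus built into the comparison, and the test cannot show more than that. The same few CDR3s also recur in these tumours, so the tumours are not independent in this measure. Against those 12-residue CDR3s that also keep the germline end, the difference was 14.2 points in 15 tumours and no longer passed (adjusted p = 0.0859). Reads per CDR3 gave no call. The median MAIT-form CDR3 of a tumour had 0.30 more on the log2 scale than the median conventional Traj33 CDR3 (interval -0.25 to 0.85, n = 17, adjusted p = 0.623 by the same permutation test).

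By the rules used here, conventional Traj33 CDR3s were in turn shared more than other alpha chain CDR3s. A Traj33 CDR3 had to end in SNYQLIW, whereas other alpha chains needed only 4 residues of a germline J end. The 160 entries that matched Traj33 best but lack this ending are among the others. The rule thus favours germline-like Traj33 chains, and the comparison cannot separate this from a property of Traj33. An equal rule for all Traj genes was not tested. Per tumour, 66.1% ± 11.2 (SD, n = 44) of conventional Traj33 CDR3s and 57.6% ± 3.86 of other alpha chain CDR3s were found elsewhere, a difference of 8.48 points (95% interval from redrawn tumours 5.91 to 11.2, adjusted p = 0.00033, sign-flip permutation test), with 39 of 44 tumours in this direction. The raw p of this test, 1e-05, is the smallest that 100000 resamples can give. Traj33 CDR3s are short, with a mean of 13.0 residues over distinct CDR3s against 13.8 for other alpha chains. When the other alpha chains were weighted to the Traj33 lengths of each tumour, the difference was 3.08 points and no longer passed (adjusted p = 0.224).

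**Figure D5:**
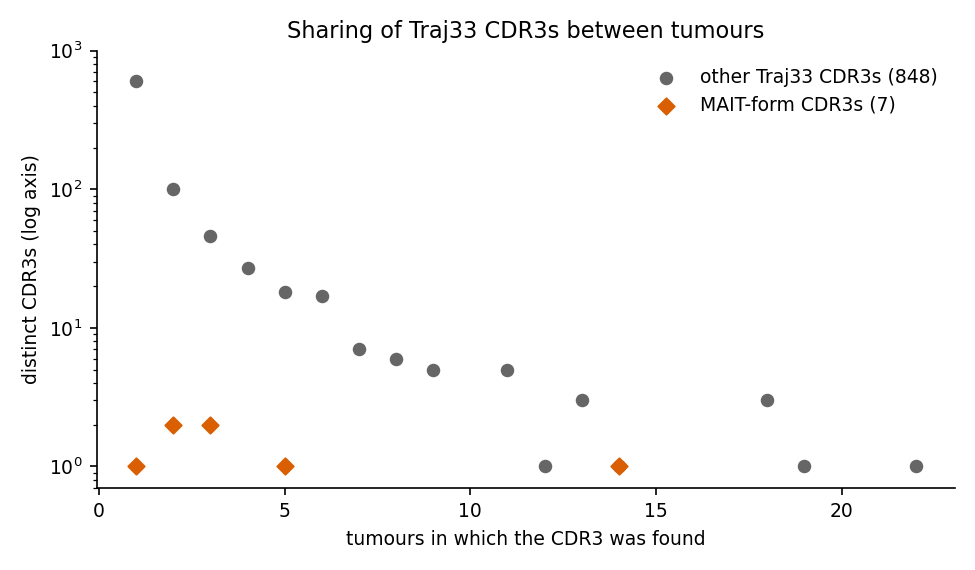
Number of distinct Traj33 CDR3s (log axis) found in a given number of tumours, for the 848 conventional CDR3s (circles) and the 7 MAIT-form CDR3s (diamonds). Most conventional CDR3s, 607, are in 1 tumour, and 1 MAIT-form CDR3 reaches 14 tumours.

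Between treatments, a lower share of conventional Traj33 CDR3s was found in another tumour with AC484 than with vehicle, and other alpha chain CDR3s had the same order. For those others the share was 54.4% ± 2.88 (SD, n = 15) with AC484, 57.5% ± 2.24 (n = 15) with anti-PD-1 and 61.2% ± 3.07 (n = 14) with vehicle, and whether Traj33 differed from them in this was not tested. For conventional Traj33 CDR3s it was 60.5% ± 4.26 (SD, n = 15) with AC484 (55.0% to 66.7%), 65.4% ± 8.18 (n = 15) with anti-PD-1 (55.6% to 85.0%) and 72.9% ± 15.4 (n = 14) with vehicle (50% to 100%). AC484 differed from vehicle by -12.3 points (95% interval from redrawn tumours -20.5 to -4.41, adjusted p = 0.0461 in a two-sided permutation test), and no AC484 tumour was above the vehicle median of 74.2%, though the ranges overlapped. This call was lost under other settings. At an equal number of alpha chain reads the difference was -8.85 points (adjusted p = 0.308), without entries under 1% of the highest count of a CDR3 it was -7.73 (adjusted p = 0.26), and leaving out any 1 of 23 of the 29 tumours ended the call. AC484 against anti-PD-1 (-4.85 points, adjusted p = 0.229) and anti-PD-1 against vehicle (-7.47 points, adjusted p = 0.308) did not pass the permutation test, and within index primer sets these were -8.32 and 5.09 points.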

How the data were processed

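The 44 libraries, 1 per tumour, were prepared by a SMARTer kit for mouse TCR chains and sequenced on a MiSeq. The authors assembled reads to amino acid clonotypes with MiXCR (parameters not given in the sources used here; mm10 is the build in the submitters' processing notes). The deposited counts are reads of each amino acid sequence in each tumour, over alpha and beta chains, without V gene or depth normalization. The deposited fraction of each tumour's reads was not used, nor were other library annotations apart from the index primer set. No pair of tumours held identical values. Tumours came from separate animals per the methods.

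Chain and Traj gene came from matching CDR3 ends to germline J ends of GRCm38.p6 (49 TRA, 12 TRB), keeping the longest match and requiring 4 residues, except that Traj33 was taken by its ending, SNYQLIW. This gave 34.5% of entries to TRA and left 2.04% unassigned, and 160 entries that matched Traj33 best but lack this ending were not counted as Traj33.

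Numbers at equal depth are exact expectations for a draw of 1466 TRA reads, the lowest total. Group means were compared by two-sided permutation tests (with 100000 resamples, or all of them for groups of under 10 tumours, called exact), with intervals from 10000 draws of tumours with replacement, and tumours with a form by Fisher's exact test. P-values were adjusted by Benjamini-Hochberg over 33 tests, at 0.05, and in an alternative the new p replaced that of the same test. Traj usage was tested with edgeR 4.0.16 on numbers of distinct CDR3s, all tumours in 1 fit with TMM, with DESeq2 1.42.0 as an alternative. Both codes were tested on simulated data. Analyses ran in Python 3.11.15 and R 4.3.3.

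Named CDR3s were every MAIT-form CDR3 in at least 2 tumours, the 5 others in the most tumours and the one with most reads in each group. Named genes were the 3 Traj genes most like Traj33 and the 3 with most reads in the MAIT-like form. Large clones, genes ahead of Traj33 and other CDR3s were named after their values were seen. Members and lists were chosen with earlier results of these data known.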

Additional observations from a re-analysis of the deposited data

How the results depend on the processing

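Traj33 shares and MAIT-form measures passed no threshold under any alternative except where depth was not made equal. Then AC484 tumours held 1.12 more MAIT-form CDR3s than vehicle (adjusted p = 0.0322), anti-PD-1 0.252 more, and conventional CDR3s differed by 51.7 (AC484 against vehicle), 31.9 (AC484 against anti-PD-1) and 19.7 (anti-PD-1 against vehicle).

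Conventional CDR3s at equal depth passed without single reads (3.96 and 3.70 for AC484 and anti-PD-1 against vehicle) and without carry-over (4.07 and 3.48). Both of these cuts came before depth was made equal, so their passes cannot be separated from depth. For anti-PD-1 the number also passed without vehicle tumour 8 or 10. The sharing difference between AC484 and vehicle lost its call by Student's t-test (-12.3), by ranks (-7.94 mean ranks), without single reads (-9.71), without carry-over (-7.73) and at equal depth (-8.85, chosen after seeing the data). The sharing of the MAIT form lost its call within vehicle (32.5, 2 tumours) and within anti-PD-1 (22.97, 4 tumours), groups too small to pass, and against chains with the germline end (14.2, added later). That of conventional chains lost it within vehicle (11.7) and at matched lengths (3.08, added later).

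The labels link same-numbered tumours by the number only. In 3 of 14, 3 of 15 and 3 of 14 pairs their Traj profiles correlated over 0.1, and 2, 1 and 0 tumours correlated best with their own number. These correlations cannot exclude a link that the labels do not give. With the replicate block, the sharing difference was -11.9 (adjusted p = 0.139) and the count of Traj genes higher with AC484 than anti-PD-1 went from 1 to 0; the block changed no other call.

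Signs turned for differences that no test called. The Traj33 share of distinct CDR3s turned without single reads (-0.0430), without near-copies (-0.00301) and for endings in NYQLIW (-0.0107) in AC484 against anti-PD-1, and without carry-over in all 3 comparisons (0.0898 and 0.0911 against vehicle, -0.00131). The Traj33 share of reads turned within set 3 (0.648), over both chains (0.324), within set 2 (3.85) and by ranks (2.62). For anti-PD-1 against vehicle, MAIT-form measures turned by ranks (0.345 for the share of reads and the number, 0.207 for the share of Traj33), with any 2 residues after CA (0.118, 1.28 and 0.178) and with arginine or methionine only (0.000774 and 0.0151). With any 2 residues after CA, the MAIT-form share for AC484 against anti-PD-1 was -0.0425. Tumours with the form turned within set 2 (-20 points, added later) and without single reads (-1.43). Length turned within set 3 (-0.0624) and without single reads (-0.0125), the germline D within set 3 (-8.79), sharing within set 2 (5.09), and MAIT-form reads per CDR3 without single reads (-0.0144) and within anti-PD-1 (-0.68).

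Counts of Traj genes went to 0 with the index set as a block for AC484 against vehicle (from 1 higher and 3 lower), lower with AC484 than anti-PD-1 (from 3) and lower with anti-PD-1 than vehicle (from 1). In this block the comparisons with vehicle rest on the 2 vehicle tumours of set 2. Genes higher with AC484 than anti-PD-1 numbered 0 by DESeq2 and 3 without TMM.

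Leaving out 1 tumour gave -0.0682 to 0.105 (AC484 against anti-PD-1) for the share of distinct CDR3s, -4.80 to 2.10 (anti-PD-1 against vehicle) for the share of reads, -0.00261 to 0.0142 (AC484 against vehicle) for the MAIT-form share, -0.450 to 0.124 and -0.0897 to 0.00947 (anti-PD-1 against vehicle) for its share of Traj33 and number, -0.00283 to 0.0514 for length and -0.554 to 2.60 for the germline D (AC484 against anti-PD-1), 2.38 to 3.26 for conventional CDR3s (anti-PD-1 against vehicle) and -14.1 to -10.2 for sharing (AC484 against vehicle). The causes were not tested.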
